A study of Vitis vinifera and Vitis x champinii x Vitis riparia and Vitis cinerea var. helleri x Vitis rupestris with 22 samples.

Results

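The roots of the rootstock hybrid K51-40 were compared with those of Cabernet Sauvignon, both grown without added chloride. K51-40 is a hybrid of Vitis champinii and Vitis riparia, and Cabernet Sauvignon is a Vitis vinifera variety. The comparison used 8 of the 22 arrays of the series, the 4 labelled as control roots of K51-40 and the 4 labelled as control roots of Cabernet Sauvignon, and every array of both groups was kept. The other arrays held roots of both varieties after 50 mM chloride (4 arrays each) and roots of the rootstock 140 Ruggeri, a hybrid of Vitis berlandieri and Vitis rupestris (3 arrays for each condition).

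The plants were rooted leaves, that is, single leaves with roots grown from the petiole, in aerated hydroponic solution. Control plants received nutrient solution alone for 4 days after a pre-treatment in the same solution, and salt-treated plants received 50 mM chloride balanced by sodium, calcium and magnesium over the same 4 days. Each array held RNA from whole roots pooled from 4 rooted leaves, so that cell types of the root were mixed, and a lower number of cells of a type cannot be told apart from less RNA per cell. The vines of each variety were raised from cuttings, so each group stands for 1 genotype.

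Chloride crosses the root through anion-permeable transporters and channels and is loaded into the xylem, which carries it to the shoot. Several families are proposed to take part in the transport of chloride and other anions. They include nitrate transporters (the NRT1 or NPF family and NRT2) and channels or exchangers of anions (the CLC, SLAC/SLAH and ALMT families). Abscisic acid, the hormone of drought and salinity, acts on several of these proteins in Arabidopsis, and varieties of grapevine used as rootstocks differ in how much chloride reaches their leaves. Grapevine roots are also known for their stilbenes, phenolic defence compounds made by stilbene synthases from the product of phenylalanine ammonia-lyase (PAL), and for large families of terpene synthases. The roles named below are those of the Arabidopsis or other plant homologues after which the genes were annotated.

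The array held 52478 probes for 26241 predicted genes of the Vitis vinifera 12x genome, of which 26237 genes had 2 probes of different sequence. Probes were designed on the genome of Vitis vinifera, the species of Cabernet Sauvignon but not of K51-40, so at any single probe a lower signal in K51-40 may hold both fewer transcripts and weaker binding, and these cannot be told apart. Values are the log2 of the authors' normalized signal, and a difference is K51-40 minus Cabernet Sauvignon on that scale. A probe was called where the Benjamini-Hochberg adjusted p of limma was at most 0.05 and the difference at least 0.5 on the log2 scale (1.41-fold), and a gene where at least 1 of its probes was called. Where the probe was not well above background on any array of the lower variety, only a bound is given, as "at least N-fold". Levels of different probes were not set against each other.

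Before the results, the state of the arrays is given. Control arrays of the 2 varieties had 74.4 to 78.8% of spots well above background, and none had a saturated spot. The processed values correlated at 0.990 to 0.994 between K51-40 control arrays, 0.991 to 0.996 between Cabernet Sauvignon control arrays and 0.933 to 0.942 between varieties, across probes. The scanner output of Cabernet Sauvignon control 3 correlated at 0.930 with its own processed column and at 0.989 with that of K51-40 control 1, whereas its processed column grouped with the other Cabernet Sauvignon arrays, so the processed values were used throughout and detection in Cabernet Sauvignon was judged on the other 3 control arrays. K51-40 control 1 and 2 and Cabernet Sauvignon control 1, 2 and 3 were scanned on the first of the scan dates and the other 3 arrays on the second. Of the 17057 probes called, 17056 kept their direction within the first date and 17036 within the second. The probes were called on these same arrays, so the counts are not an independent check of scan date. Root surface marker genes (6 genes) had array means of 9.57 to 9.77 in K51-40 and 9.88 to 10.4 in Cabernet Sauvignon on the log2 scale. Of their probes, 12 of 12 were above background in both varieties, and 2 genes were called higher and 4 lower in K51-40. Endodermis and stele markers (9 genes) had means of 8.69 to 8.89 in K51-40 and 8.15 to 8.34 in Cabernet Sauvignon, with 18 of 18 probes above background in K51-40 and 13 of 18 in Cabernet Sauvignon and 5 genes called higher and 2 lower in K51-40. Photosynthesis genes of leaf (5 genes), which root tissue should hold little of, were above background at 9 of 10 probes in each variety and had means of 9.34 to 9.91 in K51-40 and 9.06 to 9.47 in Cabernet Sauvignon, with 3 genes called higher and 1 called lower in K51-40. The root surface markers were annotated as high-affinity phosphate, nitrate and potassium transporters, and those of endodermis and stele as UPF0497, SKOR, PHO1 or HKT1 genes. Several of these genes are also among the results below. Their values therefore do not measure tissue makeup apart from those results, and whether tissue makeup differed was not tested.

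The 2 varieties differed at a large share of their genes in the absence of salt. Of the 26241 genes, 11506 were called (43.8%), 5939 higher in K51-40 (22.6%) and 5926 lower (22.6%), and 359 genes had 1 probe called in each direction. The split was even, and the median difference over all probes was 0.043 on the log2 scale. At 24488 probes (46.7%) the 4 K51-40 arrays did not overlap the 4 Cabernet Sauvignon arrays, and this was so at 16388 of the called probes (96.1%). The median SE of a difference was 0.114, and it was 0.0956 at the 180 probes of the 90 anion transporter genes, which were printed 11 or 12 times on each array.

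The probes of a gene often gave different answers. Both probes were called in 1 direction at 5192 genes (19.8%), 2689 higher in K51-40 (10.2%) and 2503 lower (9.54%). At 5955 genes only 1 of the probes was called (2891 higher and 3064 lower), with a median size of 0.75 at the called probe and 0.17 at the other. The other probe had the same sign at 4219 of these genes. Wide gaps, with 1 probe at 2 or more on the log2 scale and the other under 0.5, ran mostly downwards, at 287 genes lower and 99 higher in K51-40. With both probes at 2 or more, the genes numbered 239 lower and 206 higher.

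**Figure D1:**
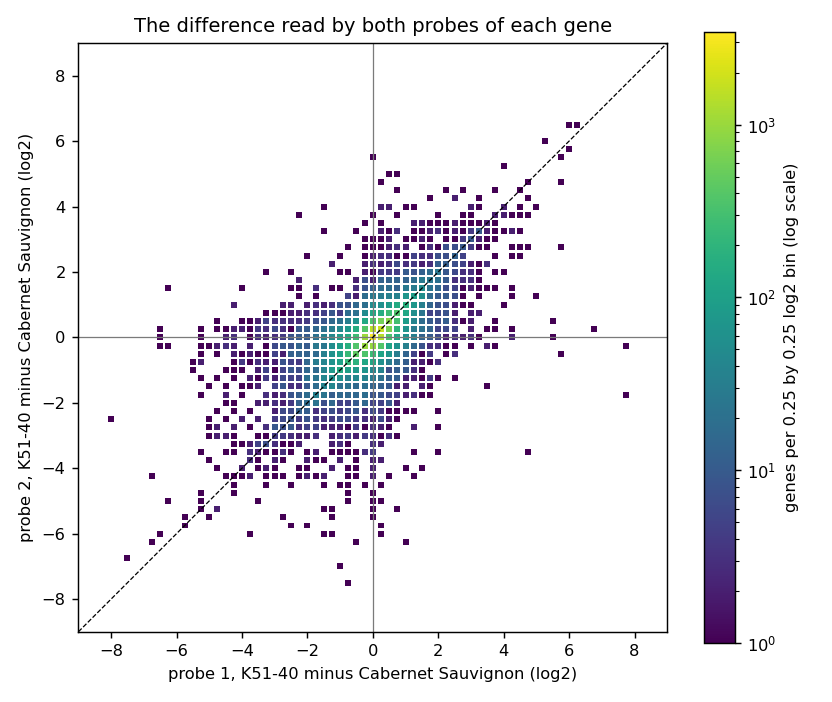
K51-40 minus Cabernet Sauvignon difference (log2, control roots) at 1 probe of each gene against the other, as the number of genes per bin on a log colour scale, for the 26237 genes with 2 probes; the dashed line marks equal differences. Most genes lie near 0, an arm along the dashed line holds the genes that both probes placed on 1 side, and arms along the axes hold genes that differed at 1 probe alone.

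The largest increases in K51-40 are given for annotated genes with both probes called and no overlap of arrays. The 33 kDa secretory protein gene (GSVIVT01005284001) had 12.36, 12.23, 12.67 and 12.45 in K51-40, against 6.15, 6.14, 6.13 and 6.43 in Cabernet Sauvignon. All 4 K51-40 arrays lay far above the Cabernet Sauvignon arrays, and the difference was 6.22 (SE 0.17), or 74.3-fold (adjusted p = 3.2e-17, limma), with 6.38 at the other probe. A gene annotated as the nitrate transporter NTL1 (GSVIVT01037125001), a member of the NRT1 family, had 11.24, 11.45, 10.99 and 11.16 in K51-40, against 6.91, 6.85, 7.43 and 7.10 in Cabernet Sauvignon. The groups did not overlap, and it was 17.6-fold higher in K51-40 (difference 4.14, SE 0.16, adjusted p = 7.7e-15, with 3.30 at the other probe).

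A group of 3 neighbouring genes of chromosome 13 annotated as CYP79A2, a cytochrome P450 that in Arabidopsis converts phenylalanine to an aldoxime, was detected in K51-40 and not well above background in Cabernet Sauvignon at the probes given. GSVIVT01032694001 had 9.78, 10.75, 9.61 and 9.60 in K51-40, against 4.84, 5.09, 5.32 and 5.01 in Cabernet Sauvignon, so that it was at least 28.3-fold higher in K51-40 (adjusted p = 8.6e-13). The bounds were at least 23.5-fold for GSVIVT01032687001 and at least 11.6-fold for GSVIVT01032689001. K51-40 control 2 was the highest array at all 3 genes, and no K51-40 array came near the Cabernet Sauvignon values. Since these genes are copies of each other, a signal at 1 probe may hold transcripts of the others.

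The 8 genes annotated as orcinol O-methyltransferases, enzymes known from roses for making the scent compound dimethoxytoluene, split by location and by annotation source. All 6 on a short stretch of chromosome 12 were higher in K51-40, whereas 2 elsewhere were lower, and the median of the 8 differences was 2.78. The 6 were annotated through the study's table of salt-responsive genes. The 2 came through its table of genes lower in K51-40 than in the other rootstock. Both tables were chosen on these K51-40 control arrays, so the directions are not independent evidence. Whether location mattered apart from the source was not tested, nor whether probes on that stretch bind transcripts of neighbouring genes. GSVIVT01020731001 of the chromosome 12 group had 9.85, 10.53, 10.37 and 10.59 in K51-40, against 5.82, 5.49, 5.57 and 5.67 in Cabernet Sauvignon. The arrays of the varieties were well apart, with a 26.0-fold difference (4.70, SE 0.20, adjusted p = 3.1e-14, with 2.87 at the other probe). Its neighbour GSVIVT01020734001 had 8.90, 9.53, 9.24 and 9.41 in K51-40, against 5.46, 5.20, 5.03 and 5.08 in Cabernet Sauvignon, where it was not well above background (at least 16.9-fold higher in K51-40, adjusted p = 6.7e-14). GSVIVT01020642001 of the same stretch is less certain, as 1 probe was at least 28.5-fold higher in K51-40 and the other differed by 0.39 and was not called. The oomt2 gene of chromosome 15 (GSVIVT01026803001) had 5.00, 4.83, 4.84 and 4.78 in K51-40, not well above background, against 7.71, 8.36, 8.47 and 8.28 in Cabernet Sauvignon, and was at least 9.82-fold lower in K51-40 (adjusted p = 4.9e-14).

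A lipoxygenase, a lipase and a resistance gene were also far higher in K51-40. The lipoxygenase LOX2 (GSVIVT01025339001), which in Arabidopsis starts jasmonate synthesis, had 8.14, 9.41, 8.69 and 8.69 in K51-40, against 4.92, 5.45, 5.22 and 5.31 in Cabernet Sauvignon. The K51-40 arrays were all above the others (difference 3.50, SE 0.22, adjusted p = 1.6e-11). A GDSL lipase (GSVIVT01029547001) differed by 3.33 and 3.28 at its probes. A gene annotated as RPS2 (GSVIVT01015167001), in Arabidopsis a receptor for a bacterial effector, had 8.31, 8.27, 8.44 and 8.37 in K51-40, against 4.92, 5.10, 4.95 and 5.16 in Cabernet Sauvignon, where it was not well above background. It was at least 9.78-fold higher in K51-40 (adjusted p = 4.6e-15).

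The largest decreases in K51-40 were taken by the same rule. A (-)-germacrene D synthase of chromosome 18 (GSVIVT01036331001) had 5.88, 5.65, 5.74 and 4.94 in K51-40, against 12.68, 12.55, 12.17 and 12.12 in Cabernet Sauvignon. The groups were more than 6 log2 units apart in every array, and the gene was 113-fold lower in K51-40 (difference -6.83, SE 0.21, adjusted p = 2.2e-16, with -7.55 at the other probe). RD22 (GSVIVT01035690001), named for its response to desiccation in Arabidopsis, had 8.89, 8.91, 9.28 and 9.47 in K51-40, against 15.40, 15.36, 15.75 and 16.78 in Cabernet Sauvignon. It was clearly expressed in K51-40 but 103-fold lower (difference -6.68, SE 0.29, adjusted p = 3.6e-14, with -6.21 at the other probe).

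Osmotin (GSVIVT01019838001), a pathogenesis-related protein of osmotic stress in tobacco, had 8.13, 7.68, 8.37 and 7.24 in K51-40, against 11.54, 11.24, 11.22 and 11.61 in Cabernet Sauvignon. No K51-40 array reached the Cabernet Sauvignon range (difference -3.55, SE 0.24, adjusted p = 5.5e-11), and the other probe gave -3.63. A zinc knuckle gene (GSVIVT01017617001) had 6.05, 5.79, 5.49 and 5.23 in K51-40, against 12.44, 12.25, 12.42 and 12.25 in Cabernet Sauvignon, and was 104-fold lower in K51-40 (adjusted p = 1.3e-18). Flavin-containing monooxygenase 3 (GSVIVT01023948001) had 9.03, 8.34, 9.19 and 8.52 in K51-40, against 13.56, 13.48, 13.41 and 13.72 in Cabernet Sauvignon. Both of these genes had separate groups of arrays, with differences of -4.27 and -4.35 at their other probes. A tyrosyl-tRNA synthetase (GSVIVT01019752001; -4.99 and -5.46), a phospholipase A2 (GSVIVT01015240001; -4.04 and -4.05), an anthocyanidin 3-O-glucosyltransferase (GSVIVT01036732001; -3.80 and -4.26), a GCN5-type N-acetyltransferase (GSVIVT01021886001; -3.52 and -3.78) and a disease resistance gene of the NBS-LRR class (GSVIVT01014125001; -4.19 and -3.83) were also lower in K51-40 at both probes.

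**Figure D2:**
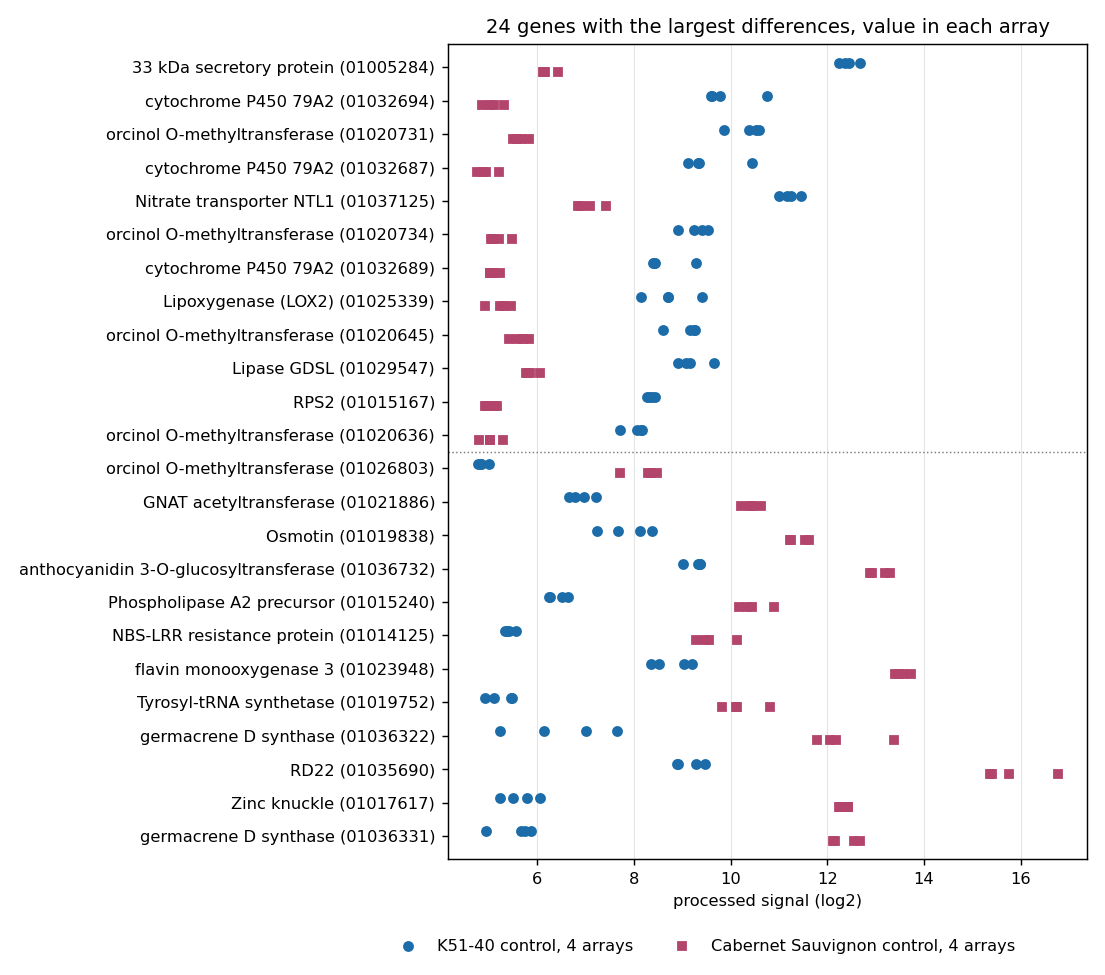
Log2 processed signal of each control array of K51-40 (blue circles) and Cabernet Sauvignon (dark pink squares) for the 24 annotated genes with the largest differences that both probes shared, labelled by annotation and gene number; the dotted line divides the 12 genes higher in K51-40 from the 12 lower in it. The genes were chosen for no overlap of arrays, so the varieties are apart at every gene. Above the line the widest gap belongs to the 33 kDa secretory protein gene. Below the line the widest gaps belong to a germacrene D synthase, the zinc knuckle gene and RD22.

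To describe gene groups, 22 lists were made from the annotations. The median of a list is over its genes, each taken as the mean of its probes. A functional annotation was at hand for 2735 genes, of which 1833 were called (67.0%), 682 higher in K51-40 and 1215 lower. Annotation came unevenly, with 1996 genes through a table of genes higher in 140 Ruggeri than in K51-40. That table was chosen by the study on the same K51-40 control arrays. Another 1346 came through a table of salt-responsive genes, and a gene could be in both. Of those 1996 genes, 1176 were called lower and 253 higher here, so list counts that lean downwards in K51-40 are not independent evidence of that direction. Of the 1346 genes of the salt table, 501 were called higher (37.2%) and 364 lower (27.0%). That table was chosen by the study on the same arrays, control roots of K51-40 included, so its genes are not independent evidence of a direction either. The 90 anion transporter genes of the array design were not chosen on these samples. Of these 90, 21 were higher in K51-40 (23.3%) and 19 lower (21.1%), beside 22.6% and 22.6% of all genes, with a median difference of 0.07, against 0.039 over all genes.

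**Figure D3:**
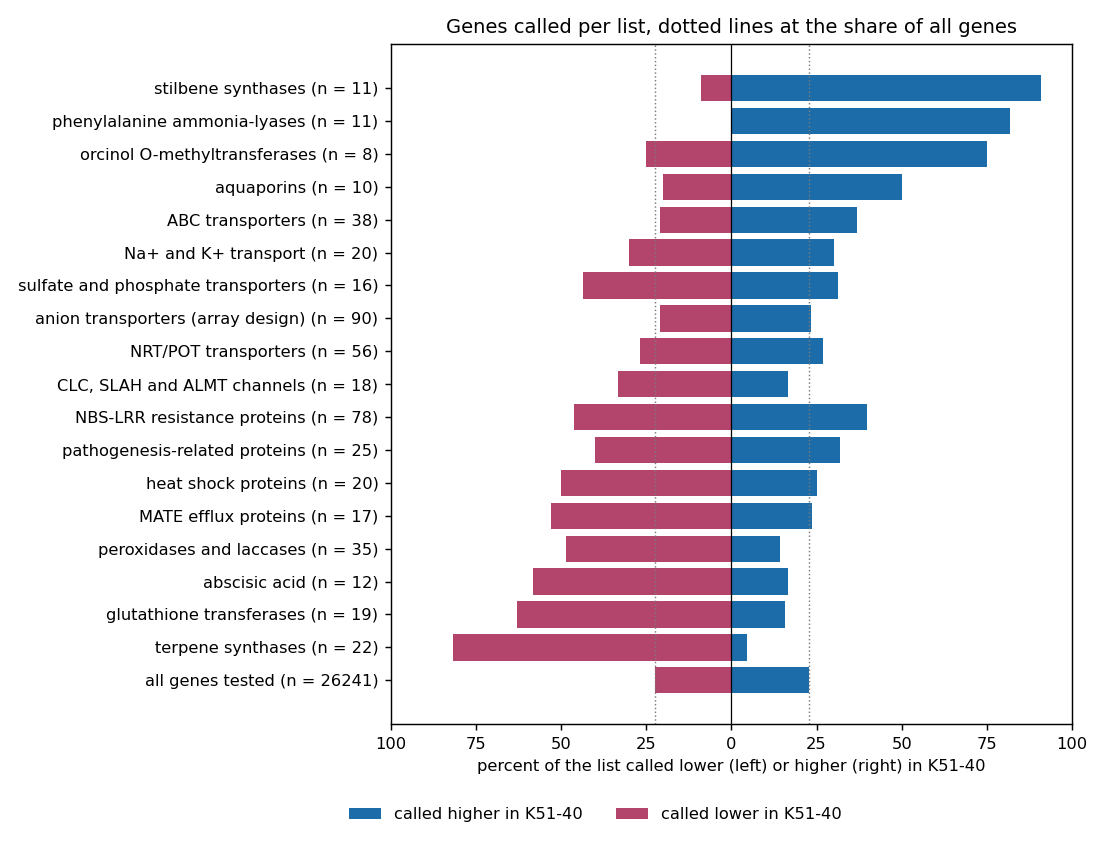
Share (percent) of the genes of each of 18 lists called lower (left) and higher (right) in K51-40 than in Cabernet Sauvignon control roots, with the number of genes in each list; dotted lines mark the shares over all genes (22.6% each way). Terpene synthases and glutathione transferases lean to the left, and stilbene synthases and phenylalanine ammonia-lyases to the right. Annotated genes, the source of the lists, leaned to the left as well (1215 of 2735 lower and 682 higher).

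Stilbene synthases were higher in K51-40 at most genes. All 11 were annotated through the study's group of genes repressed by salt in K51-40, which was chosen on these arrays, so their higher K51-40 control values are a description and not independent evidence of the direction. Of the 11 genes, 10 were called higher and 1 lower, 8 of them higher at both probes, with a median difference of 1.28. GSVIVT01010582001 had 13.31, 13.59, 13.55 and 13.53 in K51-40, against 11.72, 11.71, 11.74 and 11.75 in Cabernet Sauvignon, a difference of 1.76 (SE 0.17, adjusted p = 1.6e-08, with 1.54 at the other probe). GSVIVT01010578001 had 14.46, 15.09, 15.03 and 14.57 in K51-40, against 12.91, 13.13, 13.14 and 13.21 in Cabernet Sauvignon (difference 1.69, SE 0.17, adjusted p = 2.7e-08, with 1.08 at the other probe). GSVIVT01010574001 had 13.70, 14.11, 14.13 and 13.97 in K51-40, against 12.23, 12.41, 12.26 and 12.46 in Cabernet Sauvignon (difference 1.64, SE 0.16, adjusted p = 1.6e-08, with 1.52 at the other probe). Every K51-40 array was above every Cabernet Sauvignon array at these genes. The exception, GSVIVT01010590001, was lower in K51-40 at 1 probe (8.26, 8.27, 8.32 and 8.63 in K51-40, against 11.65, 11.45, 11.24 and 10.84 in Cabernet Sauvignon) and differed by 0.37, not called, at the other. All but 1 of the 11 genes lie in a tandem cluster on chromosome 16 and share much of their sequence, so these probes may not be independent readings of 11 genes. The gene outside the cluster, GSVIVT01026220001 on chromosome 10, differed by 1.28 at both probes (adjusted p = 1.9e-04). A gene of the chromosome 16 cluster annotated as a chalcone synthase, GSVIVT01010583001, was higher by 1.97 and 1.87 at its probes. Whether it is a chalcone synthase or a further stilbene synthase was not tested.

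PAL, the enzyme that opens phenylpropanoid synthesis, was higher at 9 of 11 genes, 8 of them at both probes, and lower at none, with a median difference of 0.87. All 11 came through the same group of genes repressed by salt in K51-40, and the same limit holds for them. GSVIVT01024293001 had 12.55, 12.81, 13.01 and 12.81 in K51-40, against 11.49, 11.47, 11.22 and 11.68 in Cabernet Sauvignon (difference 1.33, SE 0.20, adjusted p = 9.2e-06, with 0.96 at the other probe). GSVIVT01024303001 had 14.88, 15.25, 14.82 and 14.72 in K51-40, against 13.69, 13.76, 13.97 and 13.88 in Cabernet Sauvignon (difference 1.09, SE 0.20, adjusted p = 1.1e-04, with 0.88 at the other probe). The arrays did not overlap at either gene, and all 6 PAL genes of a chromosome 16 stretch were called higher. On the arrays of the second scan date alone, 4 of the 11 passed. The 2 genes not called, GSVIVT01015138001 and GSVIVT01025214001, differed by 0.21 and 0.04. These genes too are near copies, and reads of 1 by the probe of another cannot be told apart.

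The wider list of phenylpropanoid and flavonoid synthesis (32 genes) had 16 genes higher and 7 lower in K51-40, with a median difference of 0.28. Most of these too were annotated through the group repressed by salt in K51-40. Of the genes higher, 4-coumarate-CoA ligase 1 (GSVIVT01029182001), which activates the cinnamic acids made through PAL, was higher by 2.18 and 2.07 at its probes. A flavonoid 3',5'-hydroxylase (GSVIVT01038228001) was higher by 2.19 at 1 probe, with 0.40 and no call at the other. Of the genes lower, flavonol synthase (GSVIVT01008907001), which draws flavonoids to flavonols, had 7.30, 8.02, 7.95 and 7.88 in K51-40, against 11.39, 11.70, 11.61 and 12.19 in Cabernet Sauvignon. The groups lay well apart (difference -3.93, with -3.29 at the other probe).

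Terpene synthases ran the other way, with 18 of 22 genes lower and 1 higher in K51-40 (2 higher without K51-40 control 4), 12 of them lower at both probes, and a median difference of -1.59. All but 4 of the 22 were annotated through the table of genes higher in 140 Ruggeri than in K51-40, and of those 4, 3 were lower and none higher. Of the 19 genes of a chromosome 18 cluster, 16 were lower and 1 higher. Besides the germacrene D synthase above, a sesquiterpene synthase of chromosome 19 (GSVIVT01014174001) had 10.20, 10.39, 10.64 and 10.80 in K51-40, against 13.86, 14.51, 14.49 and 14.88 in Cabernet Sauvignon (difference -3.93, SE 0.17, adjusted p = 2.9e-14, with -3.32 at the other probe). A valencene synthase (GSVIVT01036308001) had 7.02, 6.55, 7.17 and 6.72 in K51-40, against 11.05, 10.86, 10.65 and 11.25 in Cabernet Sauvignon (difference -4.09, SE 0.22, adjusted p = 1.3e-12, with -3.21 at the other probe). A further germacrene D synthase, GSVIVT01036322001, had 7.65, 5.24, 7.00 and 6.14 in K51-40, against 12.17, 12.05, 11.78 and 13.37 in Cabernet Sauvignon. At all 3 genes the varieties were apart, though the last varied more among arrays of K51-40 (SE 0.48). GSVIVT01036313001 gave opposite answers, at least 10.72-fold higher in K51-40 at 1 probe and lower by -1.43 at the other. At the synthases GSVIVT01036372001 and GSVIVT01036373001, 1 probe gave -3.48 and -2.93 and the other 0.07 and -0.03.

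From the study's tables of transport and signalling genes and its primer list, 47 candidate genes were taken and measured in both varieties. Many, with NAXT1 and NAXT2 among them, came from a table of genes that differed between K51-40 and the other rootstock in control roots. The study chose that table on these same K51-40 control arrays. The directions of its genes, here and below, are therefore a description and not independent evidence. NRT1.5 (GSVIVT01013171001), which in Arabidopsis loads nitrate into the xylem, had 8.36, 8.15, 8.11 and 7.91 in K51-40, against 10.92, 11.04, 11.40 and 11.16 in Cabernet Sauvignon (difference -3.00, SE 0.17, adjusted p = 3.6e-12, with -1.995 at the other probe). NAXT1 (GSVIVT01025107001), a homologue of the Arabidopsis nitrate excretion transporter of the root plasma membrane, had 5.06, 5.15, 5.27 and 5.38 in K51-40, against 7.76, 8.26, 8.59 and 8.63 in Cabernet Sauvignon (difference -3.09, SE 0.16, adjusted p = 6.4e-13, with -2.03 at the other probe). Its neighbour NAXT2 (GSVIVT01025106001) had 6.83, 6.95, 7.14 and 7.20 in K51-40, against 9.13, 9.58, 9.93 and 10.17 in Cabernet Sauvignon (difference -2.67, SE 0.17, adjusted p = 1.9e-11, with -2.54 at the other probe). These 3 transporters of the NRT1 family were thus lower in K51-40 in every array and at both probes. The study noted for NRT1.5 that its probe matched the annotated transcript less well than its filter asked of other probes. NAXT1 was near background in K51-40, with 1 of 4 arrays well above it.

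Other members of the family were higher in K51-40. NRT1.4 (GSVIVT01015522001), which in Arabidopsis acts in the petiole, had 8.42, 7.76, 7.60 and 8.20 in K51-40, against 6.48, 6.87, 6.79 and 6.84 in Cabernet Sauvignon (difference 1.25, SE 0.23, adjusted p = 9.9e-05, with 1.09 at the other probe). GTR1 (GSVIVT01008072001), named after a glucosinolate transporter, had 7.98, 8.30, 8.51 and 8.75 in K51-40, against 6.62, 6.92, 6.74 and 6.74 in Cabernet Sauvignon (difference 1.63, SE 0.25, adjusted p = 8.3e-06, with 1.65 at the other probe). The arrays did not overlap at either gene. With the second scan date alone, NRT1.4 differed by 1.06 and was not called (adjusted p = 0.084). NRT1.8, which retrieves nitrate from the xylem in Arabidopsis, was higher by 1.10 and 0.79 at its probes. Of the high-affinity nitrate transporters, NRT2.5 was lower by -1.31 and -1.11, and NRT2.7 by -0.75 at 1 probe. The NRT2.7 call was lost without Cabernet Sauvignon control 4 (-0.477, adjusted p = 0.051). Of the 56 nitrate and peptide transporters as a list, 15 were higher and 15 lower. That is 53.6% called, beside 43.8% of all genes and 67.0% of all annotated genes.

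Among anion channels and exchangers (18 genes), 3 were higher and 6 lower in K51-40. That is 50% called, beside 43.8% of all genes and 67.0% of all annotated genes. CLC-f (GSVIVT01014852001), of the chloride channel family, had 7.11, 7.17, 7.66 and 7.54 in K51-40, against 8.92, 9.05, 9.13 and 9.21 in Cabernet Sauvignon (difference -1.71, SE 0.11, adjusted p = 4.1e-11, with -1.04 at the other probe). CLC-b (GSVIVT01033108001) had 12.21, 12.001, 12.13 and 12.05 in K51-40, against 11.07, 11.35, 11.46 and 11.41 in Cabernet Sauvignon (difference 0.77, SE 0.10, adjusted p = 7.7e-07, with 0.80 at the other probe). The CLC genes thus differed in both directions, with no overlap of arrays at these 2. ALMT1 on chromosome 8 (GSVIVT01011148001), of a family of malate and anion channels, was lower by -1.80 and -1.55, whereas 2 candidates of the same name on chromosome 6 differed by 0.38 and -0.18 and were not called. The 0.38 of GSVIVT01036162001 passed, at 0.51, without K51-40 control 4. SLAH3, an Arabidopsis nitrate and chloride efflux channel, was lower by -0.76 at 1 probe and not called at the other (-0.26). Within the first scan date that call was lost as well (-0.63, adjusted p = 0.089).

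**Figure D4:**
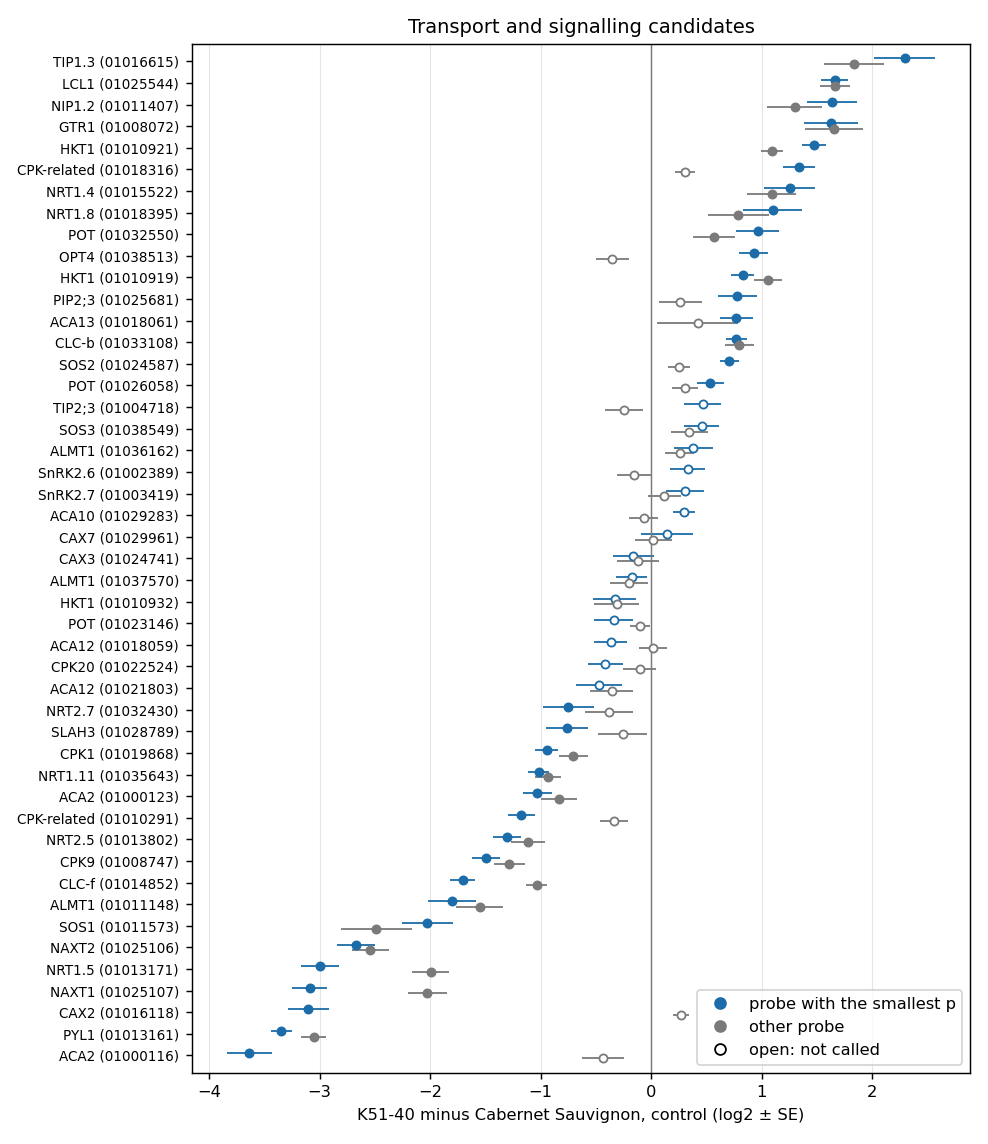
K51-40 minus Cabernet Sauvignon difference (log2, control roots) of the 47 candidate genes at both probes, with bars of 1 SE; blue points are the probe with the smaller p, grey points the other, and open points were not called. PYL1, NRT1.5, NAXT1 and NAXT2 lie near or beyond -2 at both probes, whereas CAX2 and an ACA2 gene do so at 1 probe alone. Many of the candidates, with PYL1, NAXT1, NAXT2 and CAX2 among them, were chosen by the study on these K51-40 control arrays.

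Cation transport and its regulators also differed. SOS1 (GSVIVT01011573001), the plasma membrane sodium/proton exchanger, had 6.92, 6.69, 5.71 and 5.57 in K51-40, against 8.35, 8.34, 8.19 and 8.11 in Cabernet Sauvignon (difference -2.03, SE 0.23, adjusted p = 1.8e-07, with -2.49 at the other probe). All K51-40 arrays were lower, by -1.49 on the first scan date and -2.48 on the second. SOS2, the kinase that activates it in Arabidopsis, was higher by 0.71 at 1 probe, with 0.25 and no call at the other. Of 3 genes named HKT1, sodium transporters of a tandem group on chromosome 11, GSVIVT01010921001 was at least 2.77-fold and GSVIVT01010919001 at least 1.78-fold higher in K51-40, since Cabernet Sauvignon was not well above background, and GSVIVT01010932001 was not called (-0.33), although it passed on the second scan date alone (-0.74, adjusted p = 0.0248). The whole list of 20 sodium and potassium transport genes had 6 higher and 6 lower. A gene annotated as potassium transporter 1 (GSVIVT01014970001) was higher by 2.26 and 0.76, and the cation/proton exchanger CHX20 (GSVIVT01034211001) was lower by -2.89 and -2.38.

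For calcium, the vacuolar exchanger CAX2 (GSVIVT01016118001) and the pump ACA2 (GSVIVT01000116001) differed by -3.10 and -3.64 at 1 probe and by 0.27 and -0.44, not called, at the other, so whether their transcripts differed cannot be told apart from probe binding. The other ACA2 gene (GSVIVT01000123001) was lower at both probes (-1.03 and -0.83). Calcium-dependent protein kinases pass calcium signals on, and some activate anion channels in Arabidopsis. CPK1 (-0.95 and -0.70) and CPK9 (-1.49 and -1.28) were lower at both probes, CPK20 was not called (-0.41), and of 2 related genes 1 was lower (-1.17) and 1 higher (1.34), each at 1 probe.

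Of the 12 genes of abscisic acid signalling and synthesis, 7 were lower and 2 higher in K51-40, with a median of -0.31, and 3 were lower at both probes. Among all 2735 annotated genes 1215 were lower. PYL1 (GSVIVT01013161001), a receptor of abscisic acid in Arabidopsis, had 7.03, 6.68, 6.91 and 6.84 in K51-40, against 10.20, 10.25, 10.15 and 10.26 in Cabernet Sauvignon. The values were tight within each variety and far apart between them, with a 10.2-fold lower level in K51-40 (difference -3.35, SE 0.09, adjusted p = 7.1e-17, with -3.06 at the other probe). A tandem group of 4 genes for GRAM domain proteins, annotated as responsive to abscisic acid, made up 4 of the 7, each lower at 1 probe or both. At GSVIVT01034407001 and GSVIVT01034410001 the other probe gave -0.03 and 0.02. In the same group, GSVIVT01034392001 had 5.88, 5.78, 5.27 and 5.02 in K51-40, against 9.05, 8.98, 8.98 and 8.92 in Cabernet Sauvignon (difference -3.50, with -2.03 at the other probe). The kinases SnRK2.6 and SnRK2.7, which relay the signal in Arabidopsis, differed by 0.33 and 0.31 and were not called, although SnRK2.7 passed on the second scan date alone (0.62, adjusted p = 0.0251). LCL1, a clock-related transcription factor of the 47 genes, was higher by 1.66 at both probes.

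Aquaporins, the water channels of membranes, had 5 of 10 genes higher and 2 lower in K51-40 with a median of 0.32. That is 70% called, beside 67.0% of all annotated genes. TIP1.3 (GSVIVT01016615001) had 9.11, 9.81, 9.79 and 9.71 in K51-40, against 7.11, 7.33, 7.37 and 7.45 in Cabernet Sauvignon (difference 2.29, SE 0.28, adjusted p = 3.9e-07, with 1.84 at the other probe). NIP1.2 (GSVIVT01011407001) had 10.10, 9.61, 10.65 and 10.74 in K51-40, against 8.70, 8.72, 8.56 and 8.58 in Cabernet Sauvignon (difference 1.64, SE 0.22, adjusted p = 2.2e-06, with 1.30 at the other probe). Both were higher in K51-40 in all arrays, whereas TIP4;1 was lower (-2.95 and -1.13). PIP2;3 was higher by 0.78 at 1 probe and not called at the other (0.27).

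Other transporters were mixed. Of the 16 sulfate and phosphate transporters, 5 were higher and 7 lower. A PHO1-like gene (GSVIVT01003226001), whose Arabidopsis relative loads phosphate into the xylem, had 10.39, 10.87, 10.52 and 10.03 in K51-40, against 7.51, 7.67, 7.66 and 7.47 in Cabernet Sauvignon (difference 2.88, with 2.69 at the other probe). The arrays were clearly apart. Sulfate transporter 3.4 was lower by -2.39 and -1.34 at its probes. Of the 38 ABC transporters, 14 were higher and 8 lower (57.9% called). The 11 annotated through that same table had 1 higher and 8 lower, and the other 27 had 13 higher and 0 lower. ABCC1 (GSVIVT01015960001) was higher by 2.10 and 1.67, and GSVIVT01035780001 was lower by -3.61 and -1.06. Of the 17 MATE efflux proteins, 4 were higher and 9 lower (76.5% called). The 9 annotated through that same table had 1 higher and 6 lower, and the other 8 had 3 higher and 3 lower. GSVIVT01029913001 was lower by -3.32 and -3.33, and GSVIVT01004076001 was lower by -3.77 and -1.53.

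Of the 78 resistance genes of the NBS-LRR class, intracellular receptors of pathogen effectors, 61 were called (78.2%, beside 67.0% of all annotated genes), 31 higher and 36 lower. The 54 annotated through the table of genes higher in 140 Ruggeri than in K51-40 had 16 higher and 33 lower, and the other 24 had 15 higher and 3 lower, so the balance of directions followed the source of the annotation. A gene annotated as MLA10 (GSVIVT01031992001), in barley a receptor of powdery mildew, was higher by 2.46 and 1.33, and GSVIVT01023191001 gave opposite answers at its probes (-3.28 and 0.53). Pathogenesis-related proteins (25 genes) had 8 higher and 10 lower. Here too the source mattered, as the 14 annotated through that table had 0 higher and 9 lower, and the other 11 had 8 higher and 1 lower. PR4 (GSVIVT01036278001) was higher by 2.58 and 2.62, and the beta-1,3-glucanase GSVIVT01013131001, of a family that cuts fungal walls, was lower by -2.98 and -2.58. A class IV chitinase (GSVIVT01038108001) was lower by -3.31 at 1 probe, with 0.06 and no call at the other.

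Glutathione transferases (19 genes), which conjugate toxic and oxidized compounds, were lower at 12 and higher at 3, with a median of -0.29. GSTU25 (GSVIVT01014963001) had 5.80, 5.53, 5.09 and 4.93 in K51-40, against 10.91, 9.97, 9.42 and 9.87 in Cabernet Sauvignon (difference -4.70, with -3.12 at the other probe), with groups far apart. Peroxidases and laccases (35 genes), enzymes of lignin polymerization among other roles, were lower at 17 and higher at 5, with a median of -0.35. The 22 annotated through that same table had 2 higher and 13 lower. The other 13 had 3 higher and 4 lower, with a median of -0.12, so the lean of the list is not independent evidence. Heat shock proteins (20 genes) were lower at 10 and higher at 5, with HSP17.6 (GSVIVT01016413001) lower by -3.95 and -1.17. The 5 annotated through that same table had 0 higher and 4 lower, and the other 15 had 5 higher and 6 lower. Of 3 genes annotated as UPF0497 membrane proteins, a family that includes the Casparian strip proteins of the endodermis, 1 was higher and 1 lower.

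Salt-treated roots, which were measured on other arrays of both varieties, allowed the same comparison with independent samples. Under salt, 11941 genes were called (45.5%), 6236 higher in K51-40 (23.8%) and 6103 lower (23.3%). Of the 2689 genes that both probes placed higher in K51-40 under control conditions, 2314 (86.1%) were called higher under salt and 4 lower, and of the 2503 placed lower, 2283 (91.2%) were called lower and 6 higher. The difference at the 33 kDa secretory protein gene was 6.57 under salt and 6.22 in control roots, that at NTL1 4.54 and 4.14, that at RD22 -7.20 and -6.68, and that at PYL1 -3.00 and -3.35. The probe sequences were the same on these arrays, so persistence of a difference does not separate transcript level from probe binding.

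By the test of the difference (salt minus control), 274 genes were called (1.04%), 127 with a higher and 147 with a lower K51-40 minus Cabernet Sauvignon difference under salt. The unadjusted p was under 0.05 at 6791 of the 52478 probes. The count of genes lay between 149 and 360 when single arrays were left out, and it was 171 without K51-40 control 2, 149 without K51-40 control 4, 156 without Cabernet Sauvignon control 2, 162 without Cabernet Sauvignon control 3 and 165 without Cabernet Sauvignon salt 3. A cytochrome P450 annotated as CYP89A6 (GSVIVT01023560001) was lower in K51-40 by -1.28 under salt and higher by 1.93 in control roots, the change with the smallest adjusted p. A galactinol synthase (GSVIVT01031285001), which starts the synthesis of raffinose sugars, was higher in K51-40 by 0.47 under salt and by 1.70 in control roots.

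The difference at the stilbene synthases was smaller under salt, in genes that the study had chosen for their repression by salt in K51-40 on these arrays, so the change is given as a description with no test. Of the 11, 3 were called higher and 3 lower under salt, with a median of 0.09. GSVIVT01010578001 had 13.68, 14.17, 14.37 and 13.52 in salt-treated K51-40, against 13.24, 13.64, 13.47 and 13.75 in salt-treated Cabernet Sauvignon. The arrays overlapped under salt, unlike the control arrays, and the change of the difference was -1.28. GSVIVT01026220001 differed by -0.50 under salt and by 1.28 in control roots. PAL genes had a median difference of 0.09 under salt and 0.87 in control roots, with 1 higher and 1 lower under salt. The list of phenylpropanoid and flavonoid genes, which holds PAL genes as well, had 4 higher and 14 lower under salt. In control roots it had 16 and 7. Terpene synthases had 2 higher and 18 lower under salt.

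**Figure D5:**
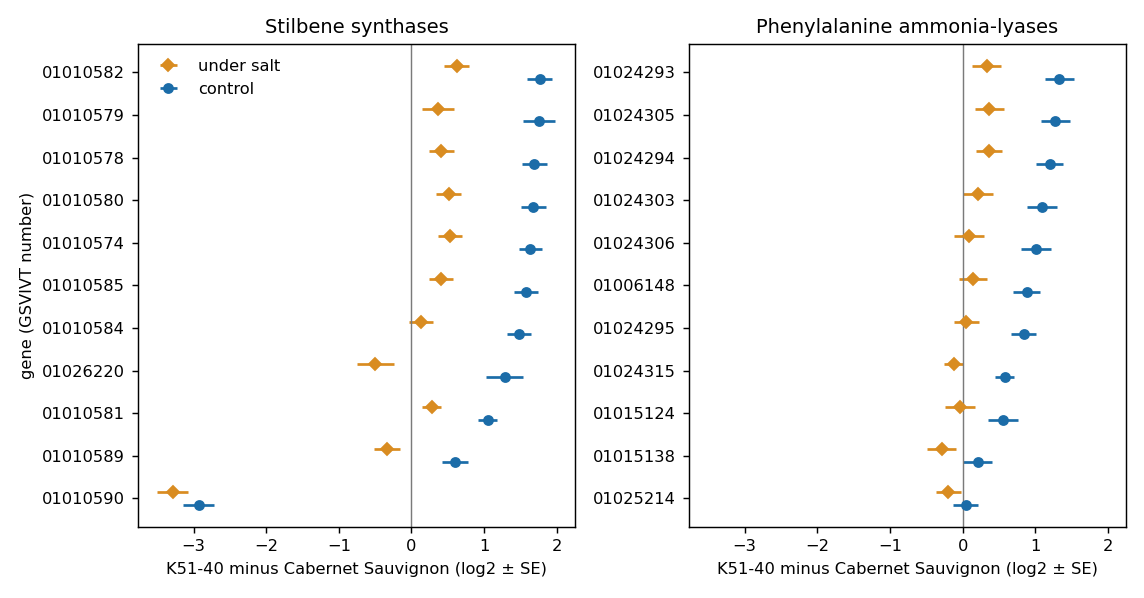
K51-40 minus Cabernet Sauvignon difference (log2, bars of 1 SE) under salt (orange diamonds) and in control roots (blue circles) for 11 stilbene synthases and 11 phenylalanine ammonia-lyases. In control roots 10 stilbene synthases and 9 phenylalanine ammonia-lyases were called higher in K51-40, and the points of these genes lie nearer to 0 under salt, whereas GSVIVT01010590001 lies farther from it (-3.28 under salt, -2.93 in control roots). All 22 genes were annotated through the study's group of genes repressed by salt in K51-40.

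Among the candidate transporters, the test of the change passed at NRT1.4 and TIP2;3. NRT1.4 had 6.67, 7.37, 7.45 and 6.29 in salt-treated K51-40, against 7.54, 8.07, 7.44 and 7.29 in salt-treated Cabernet Sauvignon. Under salt the arrays overlapped and K51-40 was the lower variety (-0.64), whereas in control roots it was the higher (change -1.89, adjusted p = 0.0079). TIP2;3 had 11.85, 11.13, 11.42 and 11.90 in salt-treated K51-40, against 9.55, 9.43, 10.21 and 9.93 in salt-treated Cabernet Sauvignon, and 9.59, 9.47, 9.98 and 9.52 in control K51-40, against 9.13, 9.22, 9.23 and 9.11 in control Cabernet Sauvignon. The gap of 1.80 under salt thus stood beside a gap of 0.47 in control roots that was not called (change 1.33, adjusted p = 0.010), although it passed without K51-40 control 2 (0.53) or without K51-40 control 4 (0.51). At the other probe the differences were 1.34 under salt and -0.25 in control roots. This gene was named TIP2;3 among the candidates and TIP2;2 in the annotation.

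The rootstock 140 Ruggeri gave a further reading of the same genes, although comparisons with it share the arrays above. Between 140 Ruggeri and Cabernet Sauvignon 10845 genes were called (41.3%), and between 140 Ruggeri and K51-40 7668 (29.2%). Mean levels in 140 Ruggeri control roots (SD, n = 3) were 11.07 ± 0.14 for the 33 kDa secretory protein gene and 6.49 ± 0.19 for the germacrene D synthase GSVIVT01036331001, both nearer to K51-40 than to Cabernet Sauvignon. They were 13.59 ± 0.24 for RD22, 8.65 ± 0.20 for NAXT2 and 8.62 ± 0.14 for NTL1, each between the varieties and nearer to Cabernet Sauvignon. The level was 8.28 ± 0.13 for PYL1, between the varieties and somewhat nearer to K51-40. Genes with a wide gap at 1 probe, as defined above, numbered 213 lower and 87 higher in 140 Ruggeri than in Cabernet Sauvignon, and 54 lower and 95 higher in 140 Ruggeri than in K51-40.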

How the data were processed

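RNA from whole roots was hybridised to 1-colour (Cy3) Agilent arrays of probes designed on the Vitis vinifera 12x genes. Per the labels and the study's methods, the authors extracted signals with Agilent Feature Extraction 10.7.3 and took log2 of the median signal, followed by quantile normalization and an adjustment for hybridization date (ComBat). The deposited log2 values of the series table were matched to probes by feature number, and spots of a probe were averaged. The deposited scanner intensity values served for detection, scan date and alternatives only. The authors' filter of probes by sequence could not be applied, because no probe sequences were at hand, and no sequences are shown.

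A limma model (limma 3.58.1 in R 4.3.3) of 6 group means was fitted to all 22 arrays, and p-values were adjusted over 52478 probes. Per the study's methods, the arrays of a group were biological replicates of 4 pooled plants each, and their number limits the precision. For a probe below background in a variety, the fold was bounded by the lowest signal well above background (for Cabernet Sauvignon control 3, the mean of that floor on the other 3 arrays). In simulated data with 200 probes changed by 1 on the log2 scale, no other difference and independent noise, 182 were recovered and 8 others called. Far more probes (17057) were called in the data, so these counts are not recovery or error rates of the comparison itself. The plot and summary scripts used Python 3.11.15 with pandas 2.3.3 and numpy 2.4.6.

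The members and lists were chosen with earlier results of these data known. Genes were named by rule: the 12 largest increases and 12 largest decreases shared by all probes of an annotated gene without overlap of arrays, the 47 candidate genes, and up to 4 members of each list with the smallest p. The PAL genes, the chalcone synthase, GSVIVT01026220001, GSVIVT01020642001, GSVIVT01036372001, GSVIVT01036373001, CYP89A6 and the galactinol synthase were named after their values were seen, as were the genes under other observations. Values are those of the probe with the smallest p. Functional annotation was at hand for 2735 genes, through the study's gene tables, whose expression values were not used.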

Additional observations from a re-analysis of the deposited data

Results flagged for a closer look

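In 18 of the 268 groups of 4 control arrays (134 named genes in each variety), 1 array stood apart from the other 3, by the ratio of its gap to the range of the group. Chance gives about 1 in 20 groups, and the causes were not tested.

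Among K51-40 control arrays, control 2 was the high array at the 3 CYP79A2 genes, with ratios of 0.839 (GSVIVT01032687001), 0.954 (GSVIVT01032689001) and 0.846 (GSVIVT01032694001). Control 1 was the low array at a PHO1-like gene (GSVIVT01004438001, 0.91), potassium transporter 1 (0.865), TIP1.3 (0.853) and the O-methyltransferase GSVIVT01020645001 (0.841). Control 4 was low at the aquaporin PIP1A (0.912), SLAH3 (0.846), the GRAM domain gene GSVIVT01034407001 (0.866) and the anthocyanidin 3-O-glucosyltransferase (0.831), and high at the stilbene synthase GSVIVT01010590001 (0.844). Control 3 was high at a heat shock protein 70 gene (GSVIVT01026014001, 0.867).

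Among Cabernet Sauvignon control arrays, control 4 was high at the 33 kDa secretory protein gene (0.912) and NRT1.11 (0.873), and low at the PHO1-like gene GSVIVT01004438001 (0.933) and a MATE efflux gene (GSVIVT01029137001, 0.876). Control 1 was low at the ACA2 gene GSVIVT01000123001 (0.867).

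At 6 named genes the K51-40 minus Cabernet Sauvignon difference itself differed between salt and control roots. The change, salt minus control on the log2 scale, was 1.33 at TIP2;3, 0.676 at the sulfate transporter GSVIVT01017206001, -1.89 at NRT1.4, and -1.11, -1.28 and -1.14 at the stilbene synthases GSVIVT01010574001, GSVIVT01010578001 and GSVIVT01010582001, which the study had chosen for repression by salt in K51-40 on these arrays.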

How the results depend on the processing

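The count of 11506 genes called lay between 11442 and 11612 when single control arrays were left out, and 5899 to 6034 genes were then higher and 5872 to 5969 lower in K51-40. It was 11308 on the first scan date alone and 11389 on the second, and it stayed within 1.5 times of the count with scan date or slide as a term, other scalings, scanner values or another background correction. The last used the median signal, as no mean signal was at hand. It fell to 5220 genes (2275 higher, 3012 lower) with a difference of at least 1 on the log2 scale, and to 5192 (2689 higher, 2503 lower) with every probe called in 1 direction. No named gene reversed under any alternative. Replicate numbers did not pair the arrays (deviations of same-numbered arrays correlated at -0.139 to 0.185), and with the number as a replicate block 11551 genes were called.

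With every probe of a gene called, stilbene synthases lower numbered 0, phenylpropanoid genes 10 higher and 4 lower, terpene synthases higher 0, resistance genes 14 higher and 16 lower, and anion transporters of the design lower 11. With scanner values of all 22 arrays, which hold the mismatched array, nitrate and peptide transporters higher numbered 9 and anion transporters of the design higher 13. On the first scan date alone 2 stilbene synthases were lower and 2 terpene synthases higher. Alternatives chosen after seeing the data left out single arrays for the lists (terpene synthases higher 1 to 2, with 2 without K51-40 control 4) and for the change with salt (149 to 360 genes, and 328 with scan date as a term). The causes were not tested. The signal over background was 4.94 to 10.2 at the median spot of these arrays, so differences at dim probes are bounds.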

Other observations

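Other annotated genes changed their varietal difference with salt in the test of the difference. A germin-like protein 3 gene (GSVIVT01031080001), of a family of cell wall proteins, was lower in K51-40 than in Cabernet Sauvignon by -3.25 under salt and differed by 0.05 in control roots (change -3.31, SE 0.36). A class III peroxidase (GSVIVT01032715001) was lower in K51-40 by -2.44 under salt and by -0.75 in control roots at 1 probe, and by -1.42 under salt with 0.19 in control roots at the other. A protein phosphatase 2C (GSVIVT01009374001) was higher in K51-40 by 0.28 under salt and by 1.16 in control roots. Ferric reduction oxidase 4 (GSVIVT01028873001), of a family that reduces iron at the root surface, was higher in K51-40 by 1.19 under salt and differed by -0.08 in control roots.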
